A study of Mus musculus with 6 samples.

Results

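The transcripts of the mouse mitochondrial genome were examined in left ventricles under pressure overload. They comprise every row of the count table that lies on the chromosome named MT, 37 genes of 54929 in all. These are 13 protein-coding genes, 2 ribosomal RNA (rRNA) genes and 22 transfer RNA (tRNA) genes, and their coordinates in the table equal those of the GENCODE M21 annotation at 37 of 37 genes. The libraries are mRNA-seq of left ventricle. The mice were C57BL/6 wild types in which the aorta had been narrowed by surgery (TAC, transverse aortic constriction), which loads the left ventricle. In 3 libraries, called TAC + anti-PD-1, the mice had received an antibody that blocks PD-1, a receptor through which T cells are inhibited. In the 3 libraries called TAC + anti-IgG they had received a control antibody. Both antibodies were given into the peritoneum at 10 mg/kg at intervals of 3 days from day 14 after surgery, every sample has a time label of 5 weeks, and no group without TAC or without an antibody was analysed here. The comparison asks how PD-1 blockade changes the makeup of the mitochondrial RNA pool in the loaded ventricle.

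The mitochondrial genome encodes core subunits of respiratory complexes I, III and IV and of the ATP synthase (complex V), together with the rRNAs and tRNAs that translate them; all other subunits are encoded in the nucleus. Each strand is transcribed as a long precursor, and the tRNAs that lie between the other genes mark where the precursor is cut into separate RNAs. Most of the mRNAs then receive a poly(A) tail in the organelle, which in several of them completes a stop codon that the DNA encodes only in part. Heart muscle is packed with mitochondria, and mitochondrial transcripts form a large part of its polyadenylated RNA.

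The stretches of sequence that bear on how reads can be assigned are shown before the values. All were taken from GENCODE M21 transcripts of GRCm38, the assembly that mm10 represents, and are written 5′ to 3′ on the plus strand of MT or, for nuclear copies, on the strand of the copy. Of the mRNAs whose shares did not overlap between the groups, mt-Nd5 (MT:11742-13565), mt-Co1 and mt-Nd1 carry a whole stop codon. mt-Nd4 (MT:10167-11544) and mt-Cytb (MT:14145-15288) end in its first base. Shares of mt-Nd5 and mt-Co1 were higher with anti-PD-1, while those of mt-Nd1, mt-Nd4 and mt-Cytb were lower. The last 30 bases of mt-Nd5, mt-Nd4 and mt-Cytb are shown with the stop codon, or the part of it that the DNA encodes, in capitals.
mt-Nd5 3-prime end: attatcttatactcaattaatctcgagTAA
mt-Nd4 3-prime end: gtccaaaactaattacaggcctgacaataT
mt-Cytb 3-prime end: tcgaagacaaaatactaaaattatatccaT
The end of mt-Nd5 also shares 14 bases (MT:13552-13565, capitals in the next line) with mt-Nd6, which is read from the other strand, and mt-Atp8 shares 43 bases (MT:7927-7969, capitals) with mt-Atp6.
mt-Nd5/mt-Nd6: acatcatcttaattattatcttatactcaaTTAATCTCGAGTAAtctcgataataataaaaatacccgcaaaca
mt-Atp8/mt-Atp6: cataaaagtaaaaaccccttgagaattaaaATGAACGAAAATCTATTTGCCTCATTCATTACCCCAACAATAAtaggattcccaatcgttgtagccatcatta

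A stretch of the nuclear genome repeats a block of the mitochondrial genome almost letter for letter. On the minus strand of chromosome 1, between positions 24611535 and 24616197, 7 annotated copies lie side by side. Of these, 5 span all of mt-Co2, mt-Atp6, mt-Co3, mt-Nd4l or mt-Nd3 but at most the last 3 bases, 1 holds the initial 876 bases of mt-Nd4 and 1 the last 483 bases of mt-Co1. Identity was 100% for 5 of the 7 copies. The start of mt-Co2 (MT:7013-7072) and that of its copy Gm28661 (chr1:24615506-24615565) cannot be told apart by sequence.
mt-Co2 first 60 bases: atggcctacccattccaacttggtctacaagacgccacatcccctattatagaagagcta
Gm28661 first 60 bases: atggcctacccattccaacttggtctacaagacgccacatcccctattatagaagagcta
Between mt-Nd3 (MT:9459-9491 shown) and its copy Gm28438 (chr1:24613087-24613119 shown) a substitution was found at 1 base, T3C, counted from 1 at the 5′ end of the gene and shown in capitals.
mt-Nd3 at its copy mismatch: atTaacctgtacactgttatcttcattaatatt
Gm28438 at its mismatch: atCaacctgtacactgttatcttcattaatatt
Between mt-Co1 and its partial copy Gm29216 the substitution was A1066T. Less similar annotated copies, at 90.7 to 97.6% identity, exist elsewhere for all or part of mt-Co1, mt-Co2, mt-Nd2, mt-Nd5, mt-Nd6, mt-Cytb and mt-Atp6. Gm13340 aligns to 100% of mt-Co1, Gm13341 to 100% of mt-Co2, Gm11408 to 100% of mt-Nd6 and Gm11410 to 99.8% of mt-Cytb. Gm13340 held 7754, 4986 and 4208 reads with anti-PD-1, against 1860, 1557 and 3304 with anti-IgG. The reads of these less similar copies were not added to any gene. The sources used here do not give how reads that match several places were counted, so the counts of genes in the block of copies are uncertain.

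The libraries held 18664362, 21093163 and 20571721 counted reads in the anti-PD-1 group, against 18063344, 18974921 and 19708578 in the anti-IgG group. Of these, 28.9, 35.6 and 33.2% were mitochondrial with anti-PD-1, against 30.7, 39.3 and 29.9% with anti-IgG. The groups overlapped, at a mean of 32.6 ± 3.43% with anti-PD-1, against 33.3 ± 5.24% with anti-IgG (mean ± SD of 3 libraries, as throughout; exact 2-sided permutation p = 0.8). With 3 libraries against 3 this exact test cannot go below p = 0.1. The labels do not tie libraries to separate animals, and all p-values then refer to the spread between these libraries alone, which may be technical. Summed over 7 markers of ventricular cardiomyocytes, the level was 24119 ± 7221 CPM (counts per 1e6 reads, scaled by the TMM method) with anti-PD-1, against 33167 ± 4475 CPM with anti-IgG, with overlap between the groups. Named after their values were seen, Myl2, Tnnt2 and Tnni3, which encode contractile proteins, fell (log2 fold change -1.87, -1.22 and -1.35, edgeR adjusted p 0.0138 to 0.0225), and Ryr2, the calcium release channel, rose (1.39, edgeR adjusted p = 0.00644); the other 3 did not pass. With TMM scaling, 10.3% of all tested genes rose, 10.8% fell and 41.0% had groups without overlap. The 3 T cell markers summed to 1.94, 1.07 and 1.58 CPM with anti-PD-1, against 2.25, 2.74 and 3.20 CPM with anti-IgG, without overlap. Trac, the only one tested, fell (-1.32, edgeR adjusted p = 0.0471). Cd3e had 0.747, 0.161 and 0.144 CPM with anti-PD-1, against 0.153, 0.279 and 0.250 CPM with anti-IgG. Both Cd3e and Cd3d overlapped between the groups. The part of these marker differences in the results below was not tested. The 2 atrial markers summed to 0.107 CPM at most in any library and the 3 skeletal muscle markers to 0.0559 CPM at most. In a bulk sample, fewer cells of a type and less RNA per cell cannot be told apart.

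The mitochondrial pool as a whole thus took overlapping shares of the reads in both groups, while its makeup differed. The share of mt-Nd5 within the mitochondrial reads was 12.2 ± 1.11% with anti-PD-1, against 6.81 ± 0.619% with anti-IgG, and mt-Co1 was likewise higher with anti-PD-1. mt-Cytb, mt-Nd4, mt-Nd1 and mt-Rnr1 held smaller shares with anti-PD-1. The edgeR tests across all genes, in their main setting, called none of these genes. They called the tRNA genes mt-Tw and mt-Ti, which both rose. These were 2 of 31 tested mitochondrial genes, against 21.1% of all tested genes with TMM scaling and 9.33% on the mitochondrial reads. Shares without overlap were found for 11 of the 31, against 26.6% of all tested genes scaled in that way. Shares add up to 100% in each library, so that a larger share of 1 gene leaves less to the others.

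The distance between the makeup of any pair of libraries was measured as the percentage of mitochondrial reads that would have to move to another gene to make their shares equal. Between an anti-PD-1 and an anti-IgG library it was 9.11 to 17.6%, with a median of 12.4% over 9 pairs. It was 2.69 to 7.95% within the anti-PD-1 group and 3.10 to 5.40% within the anti-IgG group, over 3 pairs each. Each pair across the groups lay farther apart than each pair within a group. These pairs share libraries and are given as a description.

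**Figure D1:**
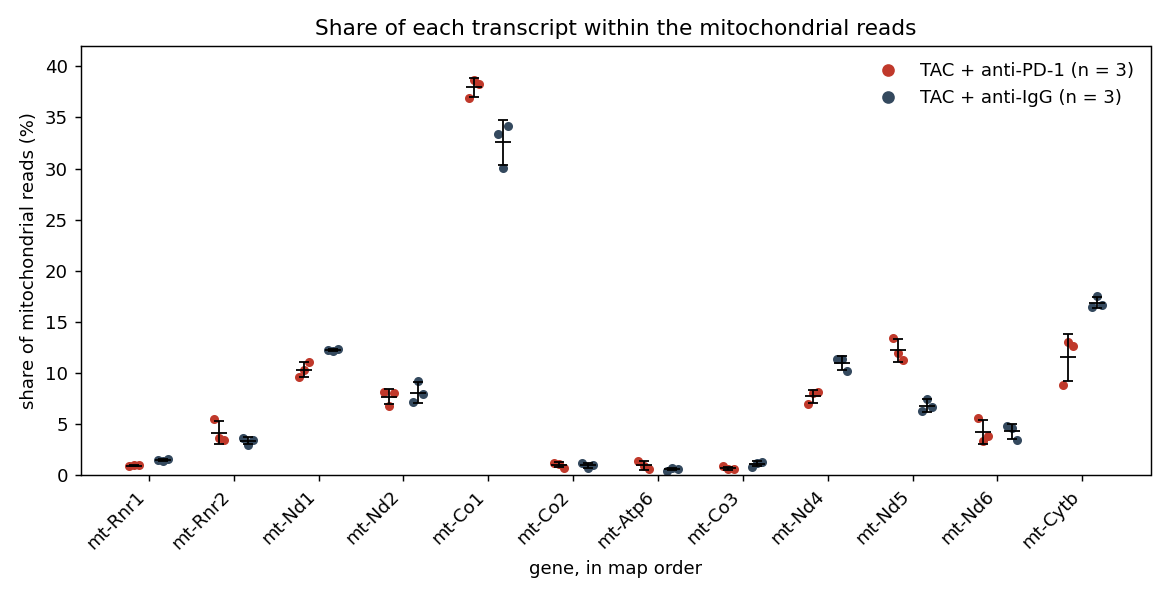
Share of the mitochondrial reads in percent (vertical axis) for the 12 genes that averaged at least 0.5%, in map order. Points are libraries, bars are mean ± SD (n = 3), with anti-PD-1 in red on the left of each pair and anti-IgG in dark blue on the right. mt-Co1 and mt-Nd5 stand higher with anti-PD-1 without overlap, at means of 37.9 and 12.2%, and mt-Cytb, mt-Nd4, mt-Nd1 and mt-Rnr1 stand lower.

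Complex I, which takes electrons from NADH, is represented by 7 mitochondrial genes. mt-Nd5 (ENSMUSG00000064367) encodes a proton-pumping subunit at the far end of its membrane arm. Its share was 13.4, 11.96 and 11.3% of the mitochondrial reads with anti-PD-1, against 6.27, 7.49 and 6.69% with anti-IgG. All 3 anti-PD-1 libraries lay above the highest anti-IgG library, and the ratio of the means was 1.79 (exact 2-sided permutation p = 0.1, the smallest possible; 37 shares were compared, so that no adjusted p can pass). With the summed mitochondrial reads as library size, the log2 fold change of anti-PD-1 over anti-IgG was 0.84 (SE 0.33), and it did not pass the threshold of 0.05 (quasi-likelihood test of edgeR, p adjusted by Benjamini-Hochberg over 14807 tested genes, adjusted p = 0.0834). With TMM scaling, which sets each gene against most other genes, it was 0.82 (SE 0.31, edgeR adjusted p = 0.0827). DESeq2 gave 0.84 with an adjusted p of 0.00484 on its own scaling and 0.0199 on the mitochondrial reads, so that the call depends on the tool. It also depends on settings within edgeR, which called mt-Nd5 without robust dispersion on the mitochondrial reads (adjusted p = 0.0115) and, with TMM scaling, with no count filter (0.0392) or with the trend of gene length removed (0.0215).

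mt-Nd4, another proton-pumping subunit of complex I, lies just before mt-Nd5 on the same strand, with 3 tRNA genes between them. It took 6.97, 8.02 and 8.15% of the mitochondrial reads with anti-PD-1, against 11.4, 11.3 and 10.2% with anti-IgG. All 3 anti-PD-1 libraries lay below the anti-IgG libraries (ratio of means 0.702, exact permutation p = 0.1). Relative to the mitochondrial reads the log2 fold change was -0.51 (SE 0.33, edgeR adjusted p = 0.338). The share of mt-Nd1 (MT:2751-3707), which encodes a subunit at the quinone site, was 9.63, 10.3 and 11.1% with anti-PD-1, against 12.3, 12.1 and 12.3% with anti-IgG. These did not overlap either, with a ratio of 0.844, and the log2 fold change was -0.24 (SE 0.33, edgeR adjusted p = 0.689). In the fit on the mitochondrial reads, the spread of a gene is estimated jointly with that of all tested genes. Its SE was 0.31 to 0.37 for every protein-coding mitochondrial gene and does not measure the spread of a gene's own shares. For mt-Nd1 those shares had an SD of 0.722% with anti-PD-1, against 0.0974% with anti-IgG.

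The remaining complex I genes overlapped between the groups. mt-Nd2 (MT:3914-4951), also a membrane-arm subunit, averaged 7.68 ± 0.751% of the mitochondrial reads with anti-PD-1, against 8.09 ± 1.03% with anti-IgG. mt-Nd6, the protein-coding gene on the minus strand (MT:13552-14070), averaged 4.26 ± 1.17% with anti-PD-1, against 4.30 ± 0.721% with anti-IgG. The sources used here do not say whether counting used strand. Reads of mt-Nd6 and reads of plus-strand precursors that run through it cannot then be told apart. mt-Nd3 averaged 0.0703 ± 0.0144% with anti-PD-1, against 0.115 ± 0.0529% with anti-IgG, and mt-Nd4l averaged 0.171 ± 0.0941% with anti-PD-1, against 0.145 ± 0.0950% with anti-IgG. Summed over all 7 genes, complex I took 42.4 ± 1.67% with anti-PD-1, against 42.7 ± 2.18% with anti-IgG (exact permutation p = 0.9), so the opposite differences of its members left the sum close in both groups.

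mt-Cytb encodes cytochrome b, the sole mitochondrially encoded subunit of complex III. Its share was 8.86, 13.05 and 12.6% with anti-PD-1, against 16.5, 17.5 and 16.7% with anti-IgG. All anti-PD-1 libraries were lower, and replicate 1 of that group was the lowest of the 6. The ratio of the means was 0.683 (exact permutation p = 0.1), and the log2 fold change relative to the mitochondrial reads was -0.55 (SE 0.33, edgeR adjusted p = 0.288).

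Complex IV, cytochrome c oxidase, has 3 mitochondrial subunits. mt-Co1 (MT:5328-6872), its catalytic core and the most counted gene of the libraries' mitochondrial pool, took 36.9, 38.7 and 38.3% of the mitochondrial reads with anti-PD-1, against 33.4, 30.1 and 34.2% with anti-IgG. The anti-PD-1 libraries were all higher (ratio of means 1.17, exact permutation p = 0.1), and the log2 fold change was 0.22 (SE 0.31, edgeR adjusted p = 0.710). mt-Co2, which accepts electrons from cytochrome c, averaged 1.01 ± 0.253% with anti-PD-1, against 0.971 ± 0.244% with anti-IgG. mt-Co3 took 0.869, 0.601 and 0.570% with anti-PD-1, against 0.846, 1.20 and 1.28% with anti-IgG. Replicate 1 of each group overlapped, and the log2 fold change of mt-Co3 relative to the mitochondrial reads was -0.71 (SE 0.35, edgeR adjusted p = 0.193). The sum of complex IV was 39.6 ± 0.706% with anti-PD-1, against 34.6 ± 2.36% with anti-IgG, without overlap, and mt-Co1 made up nearly all of it.

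The ATP synthase genes are among the least certain. mt-Atp6, a subunit of the proton channel, took 1.41, 0.893 and 0.573% with anti-PD-1, against 0.455, 0.693 and 0.630% with anti-IgG. Replicate 3 of anti-PD-1 lay within the anti-IgG range, and the log2 fold change was 0.69 (SE 0.35, edgeR adjusted p = 0.203). mt-Atp8, an accessory membrane subunit that shares its mRNA with mt-Atp6, took 0.00198 ± 0.000725% with anti-PD-1, against 0.00314 ± 0.00127% with anti-IgG. Fold changes of these neighbours in the same mRNA thus had opposite signs, at 0.69 for mt-Atp6 and -0.66 for mt-Atp8 (SE 0.37, edgeR adjusted p = 0.251).

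The rRNA genes mt-Rnr1 (MT:70-1024) and mt-Rnr2 (MT:1094-2675) encode the 12S and 16S rRNA of the mitochondrial ribosome and are neighbours at the start of the plus-strand transcript. Together they took 6.32, 4.56 and 4.43% of the mitochondrial reads with anti-PD-1, against 5.13, 4.40 and 5.06% with anti-IgG (means 5.10 ± 1.05% with anti-PD-1, against 4.86 ± 0.403% with anti-IgG, exact permutation p = 0.8). mt-Rnr1 alone took 0.855, 0.967 and 1.01% with anti-PD-1, against 1.49, 1.42 and 1.58% with anti-IgG. It did not overlap (ratio of means 0.632, exact permutation p = 0.1), and its log2 fold change was -0.66 (SE 0.35, edgeR adjusted p = 0.221). DESeq2 on its own scaling called mt-Rnr1 lower (-0.61, adjusted p = 0.0403). mt-Rnr2 took 5.46, 3.60 and 3.41% with anti-PD-1, against 3.64, 2.98 and 3.48% with anti-IgG, and these overlapped. The libraries were made from enriched mRNA, so rRNA shares describe what remained after enrichment and not the amount of rRNA in the tissue.

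**Figure D2:**
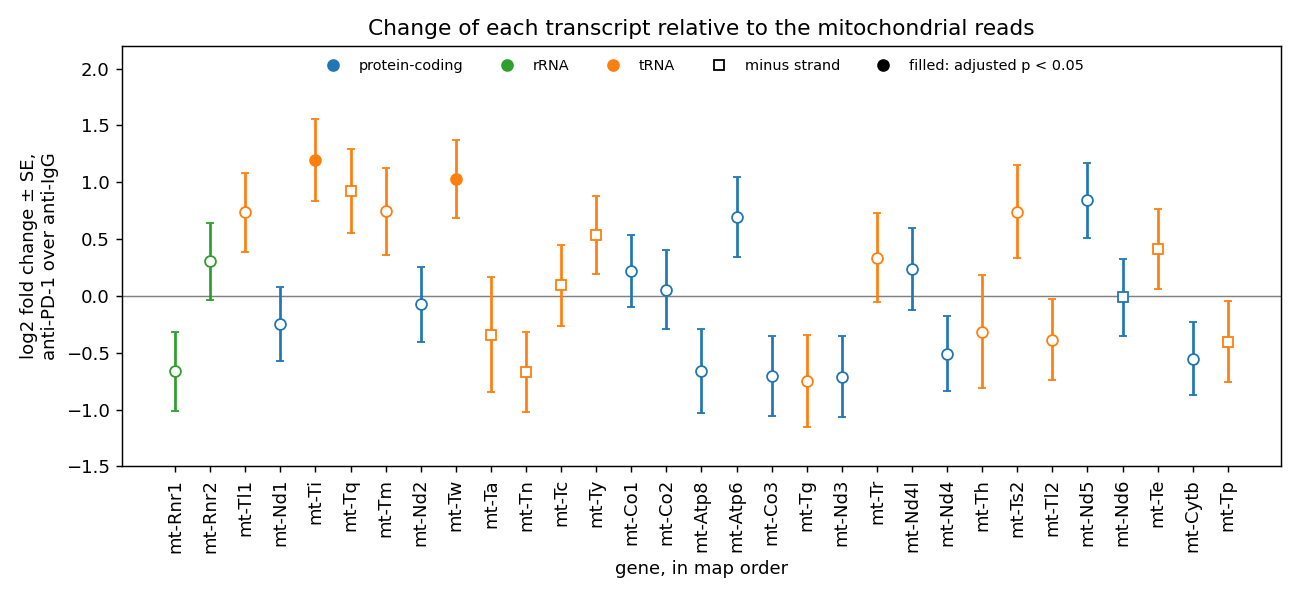
Log2 fold change of anti-PD-1 over anti-IgG (vertical axis, bars are ± SE, n = 3 libraries a group) of the 31 tested mitochondrial genes in map order, with the summed mitochondrial reads as library size. Colours give the class of RNA, squares the minus strand, and filled symbols an edgeR adjusted p under 0.05, reached by mt-Ti at 1.20 and mt-Tw at 1.03.

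Genes could also be compared directly, by their ratio of reads, which needs no scaling of the library. Ratios of 6 gene pairs were computed, and the pairs were chosen after their values were seen. mt-Nd5 had 1.93, 1.49 and 1.38 reads per mt-Nd4 read with anti-PD-1, against 0.549, 0.660 and 0.656 with anti-IgG. With anti-PD-1 the mt-Nd5 row thus held more reads than the mt-Nd4 row in every library, and with anti-IgG fewer in every library. Per mt-Cytb read, mt-Nd5 had 1.52, 0.916 and 0.891 reads with anti-PD-1, against 0.381, 0.428 and 0.401 with anti-IgG. mt-Rnr2 had 6.39, 3.72 and 3.37 reads per mt-Rnr1 read with anti-PD-1, against 2.45, 2.102 and 2.21 with anti-IgG. The anti-PD-1 libraries were higher in all of these, and replicate 1 of anti-PD-1 was the highest each time.

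For the overlapping genes on opposite strands, mt-Nd6 had 0.415, 0.282 and 0.340 reads per mt-Nd5 read with anti-PD-1, against 0.772, 0.611 and 0.521 with anti-IgG. All anti-PD-1 libraries were lower. The last pairs were mt-Nd5 per mt-Nd1, with means of 1.19 ± 0.191 with anti-PD-1, against 0.557 ± 0.0544 with anti-IgG, and mt-Co1 per mt-Cytb, with means of 3.38 ± 0.673 with anti-PD-1, against 1.93 ± 0.188 with anti-IgG. As the pairs were chosen with their values known, their lack of overlap is a description, with no test. Without anti-PD-1 replicate 1, the log2 ratio of the group means was 1.21 for mt-Nd5 per mt-Nd4 and 0.65 for mt-Rnr2 per mt-Rnr1.

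**Figure D3:**
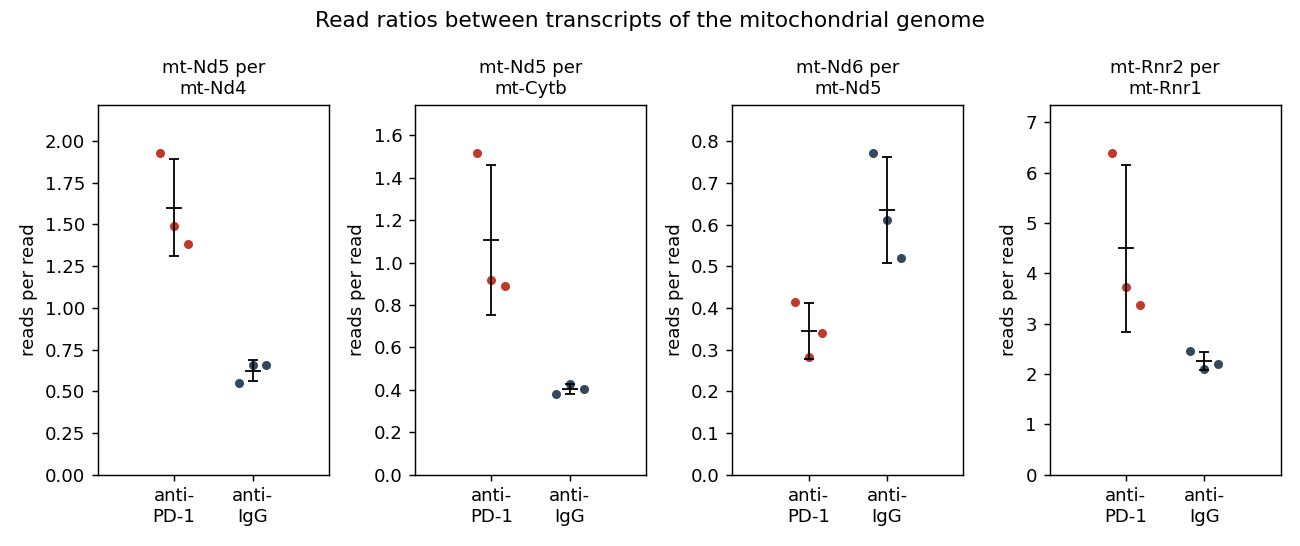
Reads of a gene per read of another gene (vertical axes, from 0) for 4 pairs of mitochondrial genes. Points are libraries and bars are mean ± SD (n = 3), anti-PD-1 on the left and anti-IgG on the right. mt-Nd5 per mt-Nd4 lies between 1.38 and 1.93 with anti-PD-1 and between 0.549 and 0.660 with anti-IgG.

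The tRNA genes made up 0.349 ± 0.0228% of the mitochondrial reads with anti-PD-1, against 0.350 ± 0.0178% with anti-IgG. Mature tRNAs are short and carry no poly(A) tail, and the mean cDNA insert of these libraries exceeds a tRNA in length. Reads in these rows therefore need not come from mature tRNA. Of the 22 genes, 16 passed the filter on low counts and were tested, with log2 fold changes relative to the mitochondrial reads that were positive in 10 and negative in 6.

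mt-Tw, the tRNA for tryptophan, and mt-Ti, that for isoleucine, were the mitochondrial genes that passed the test. Each follows an mRNA gene of the same strand directly and shares bases with it: mt-Ti (MT:3706-3774) begins inside the last 2 bases of mt-Nd1, and mt-Tw (MT:4950-5016) inside the last 2 of mt-Nd2. The whole genes are shown as transcribed, with the bases that a neighbouring gene also holds in capitals; the last 3 bases of mt-Ti belong to mt-Tq on the other strand.
mt-Ti: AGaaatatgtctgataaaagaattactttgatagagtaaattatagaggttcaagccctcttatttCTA
mt-Tw: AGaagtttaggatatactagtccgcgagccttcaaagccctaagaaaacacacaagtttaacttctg
mt-Tw had 1152, 1299 and 952 reads with anti-PD-1, against 516, 635 and 468 with anti-IgG. As a share of the mitochondrial reads this was 0.0175 ± 0.00373% with anti-PD-1, against 0.00859 ± 0.000692% with anti-IgG, without overlap. Its log2 fold change was 1.03 (SE 0.34, edgeR adjusted p = 0.0346) relative to the mitochondrial reads and 1.02 (SE 0.22, edgeR adjusted p = 0.0120) with TMM scaling.

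mt-Ti had 312, 325 and 238 reads with anti-PD-1, against 58, 171 and 151 with anti-IgG. The anti-PD-1 libraries were all higher, and the lowest count was that of anti-IgG replicate 1. The log2 fold change was 1.20 (SE 0.36, edgeR adjusted p = 0.0179) relative to the mitochondrial reads and 1.14 (SE 0.37, edgeR adjusted p = 0.04999) with TMM scaling. The adjacent mRNA genes did not share this difference: mt-Nd1 had -0.24 and mt-Nd2 -0.08 (SE 0.33 each). The call of mt-Ti with TMM scaling was lost when any library other than anti-IgG replicate 1 was left out (edgeR adjusted p 0.0593 to 0.132), and with upper quartile scaling (0.0694), a filter of at least 1 CPM in 3 libraries (0.0515) or limma-trend on log2(FPKM + 1) or log2(FPKM + 0.1) (0.0523 and 0.0529). That of mt-Tw with TMM scaling was kept whichever library was left out, and that relative to the mitochondrial reads was lost on leaving out any library other than anti-IgG replicate 2 (edgeR adjusted p 0.0521 to 0.193) and with no count filter (0.0584). That of mt-Ti relative to the mitochondrial reads was lost without anti-PD-1 replicate 1 or 3 or anti-IgG replicate 1 (edgeR adjusted p 0.0566 to 0.145).

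In all, 2 of the 31 tested mitochondrial genes were called higher and 0 lower in each fit by edgeR, with 8 at an unadjusted p under 0.05 in each, of which 3 were lower with TMM scaling and 2 relative to the mitochondrial reads. DESeq2 called 2 lower and 4 higher with its own scaling and 0 lower and 3 higher on the mitochondrial reads, and limma-voom 0 lower and 2 higher with TMM scaling. Of all 14807 tested genes, 21.1% were called with TMM scaling, 10.3% higher and 10.8% lower, so the mitochondrial share of calls was not above the background. On the mitochondrial reads the background was 9.33%, 3.13% higher and 6.19% lower. The median log2 fold change of the 31 genes was 0.10 with TMM scaling, against -0.03 over all tested genes. With TMM scaling, 5 of the 31 had groups without overlap, against 41.0% of all tested genes. As shares of the mitochondrial reads 11 of 31 did, 5 higher and 6 lower, against 26.6% of all tested genes scaled in that way.

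Among the other tRNA genes, mt-Tl1 (leucine, between mt-Rnr2 and mt-Nd1) took 0.0333 ± 0.00742% with anti-PD-1, against 0.0200 ± 0.00668% with anti-IgG, without overlap. Its log2 fold change was 0.73 (SE 0.35, edgeR adjusted p = 0.170), and 0.71 with TMM scaling (edgeR adjusted p = 0.0677). With TMM scaling edgeR called it with no count filter (adjusted p = 0.0069) or with the replicate number as a block (0.0426). It did so too with the trend of gene length removed (0.0399). DESeq2 called it on its own scaling (adjusted p = 0.0289). mt-Tq (glutamine), mt-Tm (methionine), mt-Ts2 (serine), mt-Ty (tyrosine), mt-Te (glutamate) and mt-Tr (arginine) had positive log2 fold changes of 0.34 to 0.92. These did not pass in the main setting, and the groups overlapped. mt-Tp (proline) and mt-Tn (asparagine), both on the minus strand, held smaller shares with anti-PD-1 without overlap. Their ratios of means were 0.756 and 0.628, and neither passed the test in its main setting. mt-Tc (cysteine), mt-Tl2 (leucine), mt-Ta (alanine) and mt-Th (histidine) overlapped too, with log2 fold changes of 0.10, -0.39, -0.34 and -0.32 whose sign turned on leaving out single libraries. mt-Tg (glycine) had the lowest value at -0.75 (SE 0.41, edgeR adjusted p = 0.239). It had 41, 142 and 52 reads with anti-PD-1, against 94, 162 and 111 with anti-IgG. Its value depended on anti-PD-1 replicate 2. Without that library it was -1.33 relative to the mitochondrial reads (edgeR adjusted p = 0.0477) and -1.48 with TMM scaling (edgeR adjusted p = 0.0261).

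By strand, the 14 tRNA genes of the plus strand took 0.0789, 0.0655 and 0.0540% of the mitochondrial reads with anti-PD-1, against 0.0368, 0.0418 and 0.0443% with anti-IgG. All anti-PD-1 libraries were higher (ratio of means 1.61, exact permutation p = 0.1). The 8 tRNA genes of the minus strand took 0.283 ± 0.0219% with anti-PD-1, against 0.309 ± 0.0173% with anti-IgG, and these overlapped (exact permutation p = 0.2). Rows of minus-strand genes, with mt-Tp and mt-Tc the largest, thus held most tRNA reads in every library. Whether counting used strand is not given, so the reads in these sums cannot be assigned to a transcribed strand.

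The 6 tRNA genes that were not tested had few or no reads. Summed over the libraries of a group, mt-Ts1 had 24 with anti-PD-1, against 17 with anti-IgG, and mt-Tv, which lies between the rRNA genes, had 16 with anti-PD-1, against 13 with anti-IgG. mt-Tt, next after mt-Cytb, had 14 with anti-PD-1, against 3 with anti-IgG, a ratio per mitochondrial read of 4.46 (95% exact interval 1.25 to 24.2, counting error only), and 10 of the 14 came from anti-PD-1 replicate 1. mt-Td had 3 with anti-PD-1, against 0 with anti-IgG, and mt-Tk had 1 with anti-PD-1, against 3 with anti-IgG. mt-Tf, at the start of the plus-strand transcript, had 0 reads in all 6 libraries, which allows up to 0.152 per 1e6 mitochondrial reads with anti-PD-1, against 0.159 with anti-IgG (a floor of 3 counts over the group).

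Levels of different genes can be set side by side only per length, for which the authors' FPKM values were used. With anti-PD-1 the mean FPKM was highest for mt-Co1 (77552), followed by mt-Nd1 (34096), mt-Cytb (32420), mt-Nd6 (25000), mt-Nd2 (23025), mt-Nd5 (20935) and mt-Nd4 (17773). With anti-IgG the order was mt-Co1 (64431), mt-Cytb (45744), mt-Nd1 (39398), mt-Nd6 (25723), mt-Nd4 (24687), mt-Nd2 (24460) and mt-Nd5 (11674). mt-Co1 had the highest FPKM in each of the 6 libraries. mt-Nd5 stood above mt-Nd4 in all 3 anti-PD-1 libraries and below it in all 3 anti-IgG libraries. Between neighbours in these orders the ranges over the 3 libraries overlapped, except for mt-Co1 and mt-Nd1 with anti-PD-1, and for mt-Nd1 and mt-Nd6 and for mt-Nd2 and mt-Nd5 with anti-IgG. Over all 6 libraries, mt-Rnr2 followed at a mean of 7259 FPKM, and its highest library (8835) lay below the lowest of mt-Nd5 (9146). mt-Rnr1 had 3970 FPKM. The 5 genes with a near-identical nuclear copy of the whole gene stood below all 7 of these mRNAs, at mean levels of 4416 FPKM for mt-Co2, 3542 for mt-Co3, 3516 for mt-Atp6, 1725 for mt-Nd4l and 834 for mt-Nd3. mt-Co2 and mt-Co3 encode subunits of the same complex as mt-Co1, and their mean levels were far below its own. mt-Atp8, whose place in the block of copies lies between those of mt-Co2 and mt-Atp6, had 37.9 FPKM. What the handling of reads that match the copies contributed to these low levels was not tested.

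**Figure D4:**
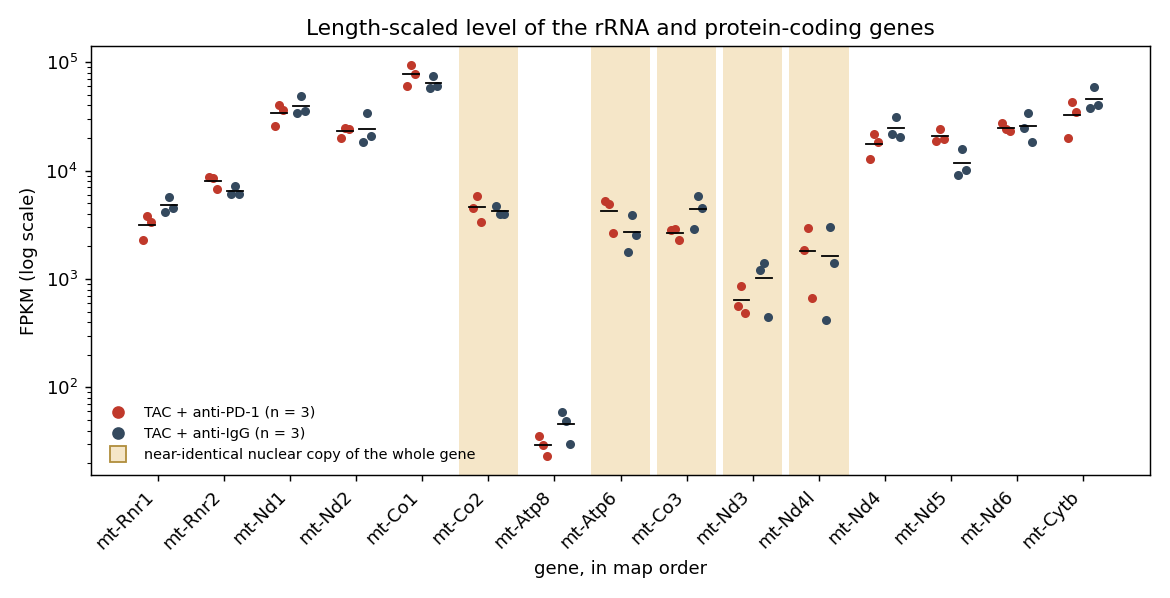
Level per gene length, in FPKM on a log scale (vertical axis), of the 15 rRNA and protein-coding genes in map order. Points are libraries, short lines are group means (n = 3), anti-PD-1 in red on the left and anti-IgG in dark blue on the right. Shaded genes have a near-identical nuclear copy of the whole gene. The shaded genes average 834 to 4416 FPKM, and mt-Nd5 stands higher with anti-PD-1 without overlap.

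In FPKM, mt-Nd5 stood at 18865, 24510 and 19429 with anti-PD-1, against 9146, 15781 and 10095 with anti-IgG. Its groups did not overlap on this scale either. mt-Nd4 averaged 17773 ± 4470 FPKM with anti-PD-1, against 24687 ± 6080 FPKM with anti-IgG, mt-Cytb 32420 ± 11589 FPKM with anti-PD-1, against 45744 ± 11389 FPKM with anti-IgG, and both overlapped. Unlike the shares, FPKM keep the differences between libraries in their total mitochondrial reads.

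The copies on chromosome 1 were themselves counted. All 7 together held 1.72, 1.10 and 0.901% of the mitochondrial and copy reads with anti-PD-1, against 1.40, 1.13 and 1.62% with anti-IgG, with overlap. For the genes concerned they were no small part. Gm28661 had 0.168, 0.181 and 0.393 reads per mt-Co2 read with anti-PD-1, against 0.373, 0.468 and 0.524 with anti-IgG. Anti-PD-1 replicate 3 overlapped the anti-IgG range, and the others lay below it. Gm10925 had 0.377 ± 0.134 reads per mt-Atp6 read with anti-PD-1, against 0.520 ± 0.0934 with anti-IgG. Gm28437 had 0.292 ± 0.0977 per mt-Co3 read with anti-PD-1, against 0.208 ± 0.0646 with anti-IgG. For the partial copies the means were smaller, at 0.00741 reads of Gm29216 per mt-Co1 read with anti-PD-1, against 0.0101 with anti-IgG, and 0.0209 reads of Gm28439 per mt-Nd4 read with anti-PD-1, against 0.00751 with anti-IgG.

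Of the 7 copies, 3 passed the test with TMM scaling, against 21.1% of all tested genes. Gm28661 fell (log2 fold change -0.89, SE 0.24, edgeR adjusted p = 0.0287), while Gm28439, the copy of the initial part of mt-Nd4, rose (0.96, SE 0.25, edgeR adjusted p = 0.0218), and Gm10222, the copy of mt-Nd4l, rose too (1.33, SE 0.24, edgeR adjusted p = 0.00737). Relative to the mitochondrial reads Gm10222 alone passed (adjusted p = 0.00483), and Gm28661 (0.0791) and Gm28439 (0.0691) did not. On that scaling 9.33% of all tested genes passed. The values of Gm28439 and mt-Nd4 had opposite signs although the copy matches mt-Nd4 at every one of its bases. When the reads of each copy were added to its mitochondrial gene, an alternative chosen after seeing the data, mt-Co2 changed sign, to -0.18 relative to the mitochondrial reads, and mt-Atp6 averaged 1.28 ± 0.482% with anti-PD-1, against 0.883 ± 0.147% with anti-IgG. mt-Nd5, mt-Nd4, mt-Cytb, mt-Nd1 and mt-Co1 kept their direction and their lack of overlap.

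Nuclear genes supply the remaining subunits of the same complexes. A list of 73 such genes was compared, with TMM scaling, beside the 13 mitochondrial mRNAs. Of the 73, 59 fell and 0 rose by edgeR, with 0 positive at an unadjusted p under 0.05 and 0 rises by DESeq2 and by limma-voom. Of all tested genes 10.8% fell and 10.3% rose. The median log2 fold change of the 73 was -1.31, against -0.03 over all tested genes. In complex I 30 of 36 fell, in complex III 6 of 9, in complex IV 12 of 12 and in complex V 11 of 16. The member with the smallest p in each complex was Ndufb9 in complex I (-2.02, SE 0.22, edgeR adjusted p = 0.00167) and Uqcr10 in complex III (-1.53, SE 0.26, edgeR adjusted p = 0.00644). In complex IV it was Cox6c (-2.12, SE 0.26, edgeR adjusted p = 0.00224), and in complex V Atp5h (-1.66, SE 0.21, edgeR adjusted p = 0.00237).

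Ndufb9, an accessory subunit of complex I, had 37.8, 61.5 and 51.8 CPM with anti-PD-1, against 192, 195 and 227 CPM with anti-IgG, without overlap. None of the 13 mitochondrial mRNAs passed the same edgeR test, while DESeq2 called mt-Nd5 higher and mt-Co3 lower. Summed, the 73 genes took 1.40, 1.82 and 1.67% of all counts with anti-PD-1, against 3.14, 2.74 and 3.44% with anti-IgG, without overlap. The 13 mitochondrial mRNAs had 19.3, 18.6 and 19.0 reads per read of these nuclear genes with anti-PD-1, against 9.22, 13.7 and 8.22 with anti-IgG. All anti-PD-1 libraries were higher, and they lay closer together than the anti-IgG libraries (means 19.0 ± 0.320 with anti-PD-1, against 10.4 ± 2.91 with anti-IgG); as the list was chosen with results known, this has no test. Of the 7 cardiomyocyte markers, Myl2, Tnnt2 and Tnni3 fell as well, while Ryr2 rose and the other 3 did not pass. The part of these markers' differences in the result was not tested. That the nuclear and mitochondrial genes differ from each other in their change was not tested as a list.

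**Figure D5:**
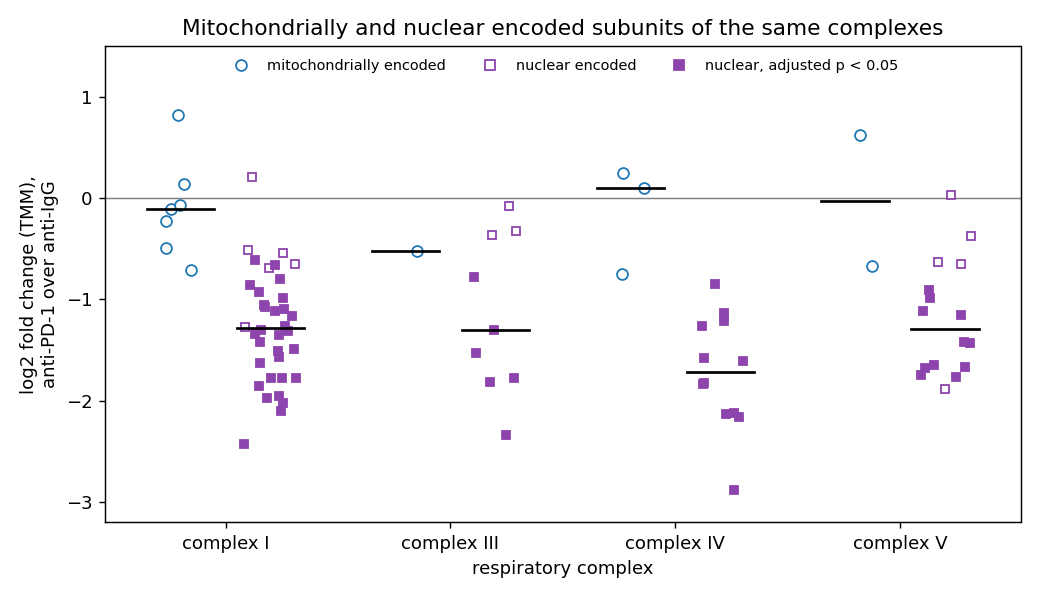
Log2 fold change of anti-PD-1 over anti-IgG with TMM scaling (vertical axis) for the subunits of 4 respiratory complexes. Circles are the 13 mitochondrially encoded subunits, squares the 73 nuclear encoded ones, filled where the edgeR adjusted p is under 0.05, and lines are medians. The nuclear genes lie mostly below -1 and the mitochondrial genes around 0.

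Gene length moved with the groups across the whole table. Over 14807 tested genes, Spearman's correlation of the log2 fold change with gene length was 0.49, given as a description across genes, which are not replicates. The median length was 1675 bp for the 73 nuclear subunit genes, 784 bp for the 13 mitochondrial mRNAs and 4163 bp for all tested genes. Within the mitochondrial mRNAs, the correlation of the log2 ratio of shares with length was 0.25 over 13 genes. It was 0.57 over the 8 without a near-identical nuclear copy of the whole gene, and mt-Nd5, at 1824 bp, is the longest. When each library's trend with length was taken out, 32 of the 73 nuclear genes were called, down from 59. Calls over all tested genes fell to 1526 in that setting, from 3118. With TMM scaling mt-Cytb, mt-Nd1, mt-Nd4 and mt-Rnr1 then changed sign, to values of 0.06 to 0.46, and mt-Nd5 passed the threshold. Without anti-IgG replicate 2, 30 of the 73 were called, and 532 of all tested genes.

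Nuclear genes that copy, transcribe, cut, modify and stabilise mitochondrial RNA were also listed, 51 in all. Of these 2 rose, 6 fell and 43 did not pass the test, and the median log2 fold change was -0.10, against -0.03 over all tested genes. The share called, 15.7%, was below the 21.1% of all tested genes, and the members below are described singly. The 6 of them that act in transcription did not pass by edgeR, and none of these had an unadjusted p under 0.05. Polrmt, the mitochondrial RNA polymerase, had 20.3, 28.7 and 22.7 CPM with anti-PD-1, against 21.3, 21.1 and 23.1 CPM with anti-IgG, and these overlapped. Its log2 fold change was 0.13 (SE 0.19). Tfb2m, which opens the promoter, had 0.30 (SE 0.16), and Tefm, an elongation factor, had -0.30 (SE 0.19). Tfam, which packages and bends the DNA, had 0.14 (SE 0.16).

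The RNA-binding partners Lrpprc and Slirp, which together stabilise mitochondrial mRNAs, differed in their values. Slirp had 0, 0 and 3 reads with anti-PD-1, against 16, 19 and 14 with anti-IgG, a ratio of 0.0576 per counted read (95% exact interval 0.0115 to 0.178, counting error only), and it fell (edgeR adjusted p = 0.0144). With so few reads its fitted fold depends on the prior count, and its call was lost without anti-PD-1 replicate 1 (adjusted p = 0.0565) or anti-IgG replicate 2 (adjusted p = 0.0693). Lrpprc had 206, 233 and 169 CPM with anti-PD-1, against 192, 149 and 137 CPM with anti-IgG, with overlap, and its log2 fold change was 0.35 (SE 0.21, edgeR adjusted p = 0.245).

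Of the factors that cut the precursor, Hsd17b10, a subunit of the RNase P that cuts at the 5′ end of tRNAs, had 30.3, 55.7 and 42.1 CPM with anti-PD-1, against 85.1, 94.4 and 92.2 CPM with anti-IgG. It fell without overlap (log2 fold change -1.08, SE 0.22, edgeR adjusted p = 0.0103), and its call held on leaving out each library in turn but was lost with the trend of gene length removed (-0.47, adjusted p = 0.119). Elac2, which cuts at the 3′ end of tRNAs, had a log2 fold change of 0.42 (SE 0.21) that did not pass, and Mtpap, the poly(A) polymerase, had 0.13 (SE 0.18). Ssbp1, the single-stranded DNA binding protein of mtDNA replication, fell by 1.02 on the log2 scale (SE 0.22, edgeR adjusted p = 0.0120). Its call was lost without anti-IgG replicate 2 (adjusted p = 0.0622).

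Mrm3, which methylates the large rRNA, fell by 0.84 on the log2 scale, Trmu, which thiolates tRNAs, by 0.80, and Mterf3, which acts in the assembly of the mitochondrial ribosome, by 0.66 (edgeR adjusted p 0.0220 to 0.0420). Fastkd2, an RNA-binding protein of the mitochondrial ribosome's assembly, rose (0.73, SE 0.20, edgeR adjusted p = 0.0277), and so did Pde12, which removes spurious poly(A) tails from mitochondrial RNA (0.68, SE 0.21, edgeR adjusted p = 0.0439). Each of these 5 calls was lost on leaving out at least 1 library, and the number of calls in the list was 1 without anti-IgG replicate 2 and 9 without anti-IgG replicate 1. It was 3 without anti-PD-1 replicate 1 or 3, and 4 without anti-PD-1 replicate 2 or anti-IgG replicate 3. Calls over all tested genes moved as well, from 3118 to 3646, 532 and 1564 without anti-IgG replicate 1, 2 and 3. They numbered 969, 2507 and 1762 without anti-PD-1 replicate 1, 2 and 3. With the trend of gene length taken out, 3 of the list and 1526 of all tested genes were called. In the list, the calls of Hsd17b10, Mrm3, Trmu, Fastkd2 and Pde12 were among those lost.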

How the data were processed

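The 6 libraries of mouse left ventricle were used. Per the labels' protocols, libraries were made from enriched, fragmented mRNA with a NEBNext Ultra kit. The authors deposited a table of read counts per gene and a table of FPKM values, made with featureCounts on mm10, per the submitters' processing notes. The aligner, the strand setting and the handling of reads with several matches are not given in the sources used here. Deposited FPKM equal the count per length divided by a constant per library, which was 0.953 to 1.15 times the summed counts.

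The test on counts was that of edgeR 4.0.16 (R 4.3.3, filterByExpr, glmQLFit with robust dispersion, 2-sided), with library sizes scaled by TMM, and again with the summed mitochondrial counts as library size; p-values were Benjamini-Hochberg adjusted over all 14807 tested genes. The filter kept 31 of the 37 mitochondrial genes. Shares and FPKM were compared by exact 2-sided permutation (SciPy 1.17.1). Copies were found with BLAST+ 2.17.0 in GENCODE M21 transcripts (at least 99% identity over at least 200 bases). The genes named were every mitochondrial gene, the machinery genes past the threshold with 8 set ones, and the nuclear subunit with the smallest p in each complex; the copies were named after their values were seen. The members and lists were chosen with earlier results of these data known. Scripts were tested on simulated counts. Alternatives were RLE and upper quartile scaling, scaling from nuclear genes, other count filters, DESeq2 1.42.0, limma-voom, limma-trend (limma 3.58.1) on log2(FPKM + 1) and log2(FPKM + 0.1), dispersion without robust fitting, the replicate number as a block, other mitochondrial library sizes, the trend of gene length removed, and each library left out. Libraries of a group differed by more than counting error (chi-square per degree of freedom 46.2 to 74.0 over genes, between pairs), so each was counted as its own sample. Intervals and floors cover counting error only.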

Additional observations from a re-analysis of the deposited data

How the results depend on the processing

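Counts of called genes moved with the setting. Of the 31 tested mitochondrial genes, 2 were called with TMM scaling, 1 with upper quartile scaling, with a filter of at least 1 CPM in 3 libraries and with limma-trend on log2(FPKM + 1) or log2(FPKM + 0.1), 8 with no count filter, 6 with DESeq2 and 5 with the trend of gene length removed. It was 1 to 3 when a library was left out. Relative to the mitochondrial reads 2 were called by edgeR, 1 with no count filter, and 0 to 3 when a library was left out, with 5 to 11 at an unadjusted p under 0.05; the 0 came without anti-PD-1 replicate 1 or 3 and without anti-IgG replicate 1. Correlations of same-numbered deviations were 0.12, -0.14 and 0.21. Without a reference for such values, they cannot settle whether the labelled replicate numbers pair libraries. With the replicate block 5 mitochondrial genes were called with TMM scaling, and 3367 of all tested genes. Over all genes, 3118 were called, 1526 with the length trend removed and 532 to 3646 without a library (532 without anti-IgG replicate 2, 969 without anti-PD-1 replicate 1, 1762 without anti-PD-1 replicate 3, 1564 without anti-IgG replicate 3). Machinery calls numbered 8, 3 with the length trend removed and 1 to 9 without a library; nuclear subunit calls numbered 59, 32 with the length trend removed and 30 to 62 without a library. Upper quartile scaling moved the median of all genes to -0.12 and the higher share of calls to 36.8%, against 48.9% with TMM.

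The mitochondrial share of all counts differed by -0.707 percentage points, by 3.86 as a share of the summed FPKM, and by -2.40 to 2.31 without a library. The rRNA share differed by 0.239 points, and by -0.368 to 0.576 without a library. With the length trend removed, log2 fold changes turned to 0.12 for mt-Cytb, 0.46 for mt-Nd1, 0.10 for mt-Nd4, 0.59 for mt-Nd2, 0.70 for mt-Nd6, 0.058 for mt-Rnr1, 0.024 for mt-Co3 and 0.24 for Tefm; relative to the mitochondrial reads without mt-Co1 they turned to 0.046 for mt-Nd2 and 0.10 for mt-Nd6, and with the copies' reads added to -0.14 (TMM) and -0.18 (mitochondrial reads) for mt-Co2. Signs also turned on leaving out a library. With TMM scaling the ranges were -0.29 to 0.19 for mt-Nd2, -0.25 to 0.18 for mt-Nd6, -0.11 to 0.30 for mt-Co2, -0.39 to 0.95 for mt-Nd4l, -0.18 to 0.34 for mt-Tc, -1.13 to 0.050 for mt-Tl2, -0.74 to 0.10 for mt-Th, -0.69 to 0.21 for mt-Ta and -0.0002 to 0.25 for Polrmt. On the mitochondrial reads they were -0.16 to 0.027 for mt-Nd2, -0.26 to 0.13 for mt-Nd6, -0.12 to 0.24 for mt-Co2, -0.19 to 0.78 for mt-Nd4l, -0.051 to 0.16 for mt-Tc, -0.99 to 0.062 for mt-Tl2, -0.54 to 0.030 for mt-Th and -0.70 to 0.15 for mt-Ta. The cause of these moves was not tested. Of the values of single genes, classes and ratios under the other settings, 875 kept their direction and side of the threshold, 18 came to pass it, 17 ceased to and 12 turned; with a library left out these numbers were 701, 5, 40 and 27, and 1 moved by more than its spread. The 6 tRNA genes with 0 to 41 reads in all did not pass the count filter and were not tested.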
